A study of Homo sapiens with 8 samples.

Results

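The 7 genes GAS5, SNHG1, SNHG3, SNHG5, ZFAS1, EIF4A2 and NCL carry small nucleolar RNAs (snoRNAs) in their transcripts, and RBM45 CLIP peaks in them were taken by position and strand. A peak counted when at least 1 of its bases lay inside the gene interval in hg19 on the gene's strand. Of the 210878 stranded peaks of WT CLIP replicate 1, 36 lay in these genes, and of the 65587 of WT CLIP replicate 2, 11 did. The authors' list of peaks shared by both replicates held 7 pairs there, of 13758 in all. Each of the 7 genes had a peak in replicate 1, and 4 of them, SNHG1, ZFAS1, EIF4A2 and NCL, also had one in replicate 2. The share of all genes with a peak in either list was not analysed, so these counts do not set the host genes apart.

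CLIP cross-links a protein to the RNA it touches with ultraviolet light and then pulls the protein down with its RNA fragments. The study placed RBM45, an RNA-binding protein, on RNA in METTL3 knockout and wild-type (WT) HEK293T cells, a transformed human embryonic kidney line. METTL3 is the catalytic subunit of the enzyme that writes most m6A on messenger RNA. The 8 libraries form 4 groups of 2 replicates, CLIP and input RNA from Mettl3 KO cells and CLIP and input RNA from WT cells, and every group expressed lentiviral FLAG-HA-tagged human RBM45 and received 300 mJ/cm2 at 254 nm. The CLIP libraries were pulled down through the HA tag, so they report a tagged, lentivirally delivered protein. The values below come from the 2 WT CLIP peak lists and the list of their pairs. Read counts and the input and knockout libraries were not analysed directly, so library depth is unknown. No source used here says whether the input was the peak caller's control. RBM45 binding and abundance of the RNA therefore cannot be told apart. The labels do not say whether replicates were separate cultures.

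A snoRNA host gene is transcribed by RNA polymerase II, and most human snoRNAs are cut out of its introns after splicing. The snoRNAs then guide ribose methylation (box C/D type, named SNORD) or pseudouridylation (box H/ACA type, named SNORA) of ribosomal and other RNAs in the nucleolus. In many hosts the spliced exons encode no protein and are short-lived, while the snoRNAs are stable and abundant. GAS5, SNHG1, SNHG3, SNHG5 and ZFAS1 are hosts of this noncoding kind. EIF4A2, an RNA helicase of translation initiation, and NCL, which encodes the nucleolar protein nucleolin, carry snoRNAs inside protein-coding genes. RefSeq (GRCh38.p14) lists 35 snoRNA genes within the 7 hosts, 11 in GAS5, 9 in SNHG1, 5 in EIF4A2, 3 each in ZFAS1 and NCL, and 2 each in SNHG3 and SNHG5. They are 60 to 207 bases long, and the table gives no strand for them.

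The snoRNAs of ZFAS1 and NCL are shown first because these genes held peaks of both kinds described below, some spaced like their snoRNAs and some elsewhere. The sequences are those of GENCODE release 29 transcripts, and in the SNORD sequences capitals mark the first TGATGA, the core of box C, and the last CTGA, the core of box D. In SNORA75 capitals mark the last ACA, 3 bases before the end.
SNORD12C: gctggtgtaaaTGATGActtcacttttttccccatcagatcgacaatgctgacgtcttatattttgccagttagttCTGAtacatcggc
SNORD12B: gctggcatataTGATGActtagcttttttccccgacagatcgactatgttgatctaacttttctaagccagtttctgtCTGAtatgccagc
SNORD12: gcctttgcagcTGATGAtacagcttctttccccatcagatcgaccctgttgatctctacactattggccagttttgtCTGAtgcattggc
SNORD20: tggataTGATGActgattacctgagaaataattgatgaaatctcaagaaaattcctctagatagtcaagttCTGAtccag
SNORD82: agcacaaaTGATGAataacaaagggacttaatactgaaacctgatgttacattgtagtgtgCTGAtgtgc
SNORA75: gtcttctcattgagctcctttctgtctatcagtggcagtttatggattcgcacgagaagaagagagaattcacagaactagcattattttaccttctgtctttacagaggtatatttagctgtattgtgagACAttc

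The first 3 are the snoRNAs of ZFAS1, on chromosome 20, and the other 3 those of NCL, on chromosome 2. The motifs were searched on the RNA strand only. Of 955 snoRNA transcripts in the annotation, 36.02% held TGATGA, 71.2% held CTGA, and 33.5% held both, while 29.4% had ACA at 3 bases from the end. In the 5 SNORD sequences the first TGATGA started at base 7 to 12 and the last CTGA ended 5 or 9 bases before the end.

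Peaks in the host genes had low fold enrichment and, in replicate 1, high −log10 p. Fold is the ratio of a peak to the caller's background and −log10 p its unadjusted strength, both as the authors' lists give them. The median fold was 1.99 over the 36 peaks of replicate 1, against 3.12 over its whole list, and 2.64 over the 11 peaks of replicate 2, against 3.81 over its whole list. The median −log10 p was 11.7 in the host genes and 3.70 in the whole list of replicate 1, and 6.13 and 4.24 in replicate 2. By gene, the replicate 1 median fold was 3.33 in ZFAS1, which held 12 of the 36 peaks, and 1.25 to 2.16 in the other genes. The replicate 1 median −log10 p was 3.97 in SNHG5 and 4.05 in NCL, and 10.5 to 58.9 in the other genes. Under 2-fold lay 18 of the 36 replicate 1 peaks, where 0.338% of the whole list did, and 3 of the 11 replicate 2 peaks, where 0.404% did. A −log10 p of at least 10 was reached by 22 of 36 replicate 1 peaks, where 4.17% of the list reached it, and by 3 of 11 in replicate 2, where 6.5% did.

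Both features met in 10 peaks of replicate 1 and 1 of replicate 2, where 0.0432% and 0.0427% of the whole lists had them. The whole replicate 1 list holds 91 peaks under 2-fold with a −log10 p of at least 10, so the 10 in these genes make up 10.99% of them. Those 10 lay in GAS5, SNHG1, ZFAS1 and EIF4A2, and SNHG3, SNHG5 and NCL held no such peak. The 2 limits were chosen after the values were seen. With 1 list per library and neighbouring peaks that share their library and transcript, these shares carry no test.

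**Figure D1:**
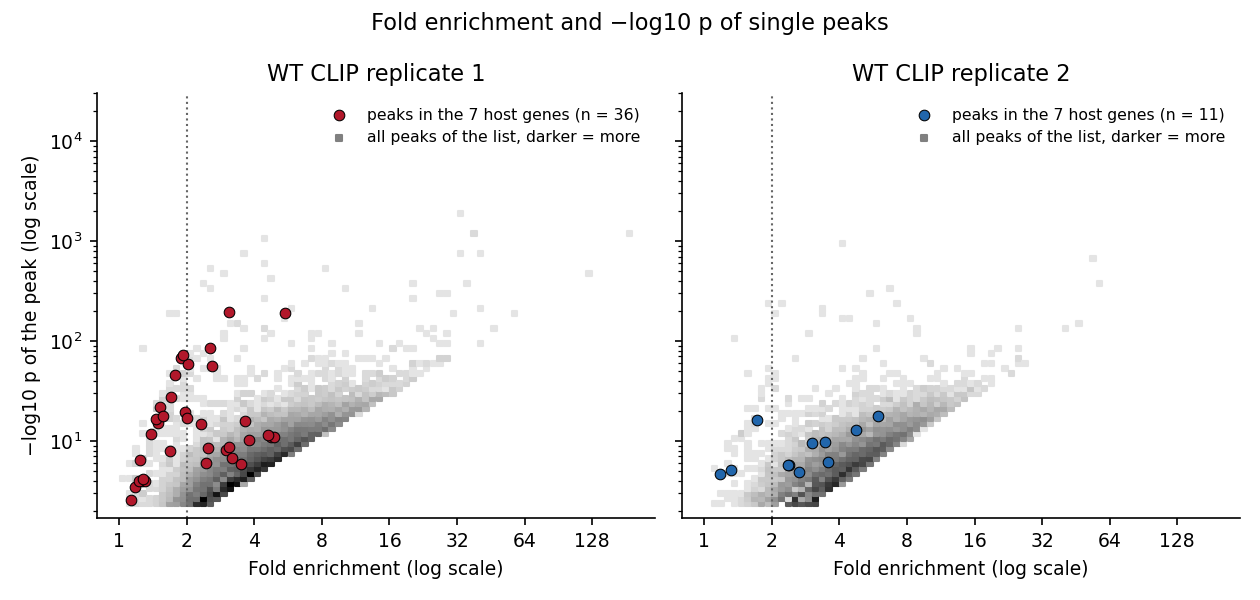
Fold enrichment (x axis, log scale) against −log10 p (y axis, log scale) of single peaks in WT CLIP replicate 1 (left) and replicate 2 (right). Coloured points are peaks in the 7 host genes, grey squares the whole list, and the dotted line marks 2-fold. In replicate 1, 18 of 36 host gene peaks lie left of the line, many along the upper left edge of the grey cloud.

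Replicate 1 peaks of 6 hosts were spaced like the snoRNAs of the same gene. The distance between peak midpoints was measured in hg19 and that between RefSeq snoRNA midpoints in GRCh38.p14, and no position was carried from one build to the other. RefSeq and the GENCODE sequences above differ in length for SNORD12B (103 and 91 bases), SNORD12C (79 and 89) and SNORD82 (75 and 70). SNORD12, SNORD20 and SNORA75 have the same length in both. Midpoints, and so spacings, can thus depend on the annotation by some bases. For each gene, peaks or snoRNAs were left out to reach equal numbers, in the choice whose spacings differed least. In GAS5, SNHG1, SNHG5, ZFAS1, EIF4A2 and NCL, 16 spacings between 22 peaks differed from their snoRNA spacings by at most 37 bases, and 11 of them by at most 10. SNHG5 and EIF4A2 give 1 spacing each, which for EIF4A2 was the best of 10 choices. Similar spacing is a description and does not place a peak on a snoRNA. The procedure was chosen after the values were seen.

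In GAS5, a noncoding host whose RNA is known to accumulate in growth-arrested cells, the 5 peaks lay 675, 516.5, 1524.5 and 804 bases apart. SNORD81, SNORD80, SNORD79, SNORD75 and SNORD74 lie 684, 522, 1518.5 and 801 bases apart. The largest difference was 9 bases, and the next best choice among 462 differed by 214. In SNHG1, the host of SNORD22 and of SNORD25 to SNORD31, the 7 peaks matched the spacing of 7 of its 9 snoRNAs within 36 bases, and the next choice differed by 270.5. The snoRNAs left out were SNORD27 and an unnamed RefSeq snoRNA gene. In ZFAS1, 3 of the 12 peaks lay 1376.5 and 363 bases apart and the 3 snoRNAs lie 1380 and 363.5 bases apart, where the next choice differed by 212.5. In NCL, 3 of the 4 peaks lay 644.5 and 3938 bases apart and the 3 snoRNAs lie 615.5 and 3921.5 bases apart. The 2 peaks of SNHG5 lay 297.5 bases apart, and SNORD50A and SNORD50B 293. In EIF4A2 the 2 peaks lay 2572.5 bases apart and SNORD2 and SNORA63 lie 2535.5 apart.

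SNHG3 stood apart. Its 4 peaks had consecutive spacings of 2170.5, 206 and 169.5 bases, and its snoRNAs, SNORA73A and SNORA73B, are 1192 bases apart. The closest spacing between any of its peaks differed from the snoRNA spacing by 816.5 bases.

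**Figure D2:**
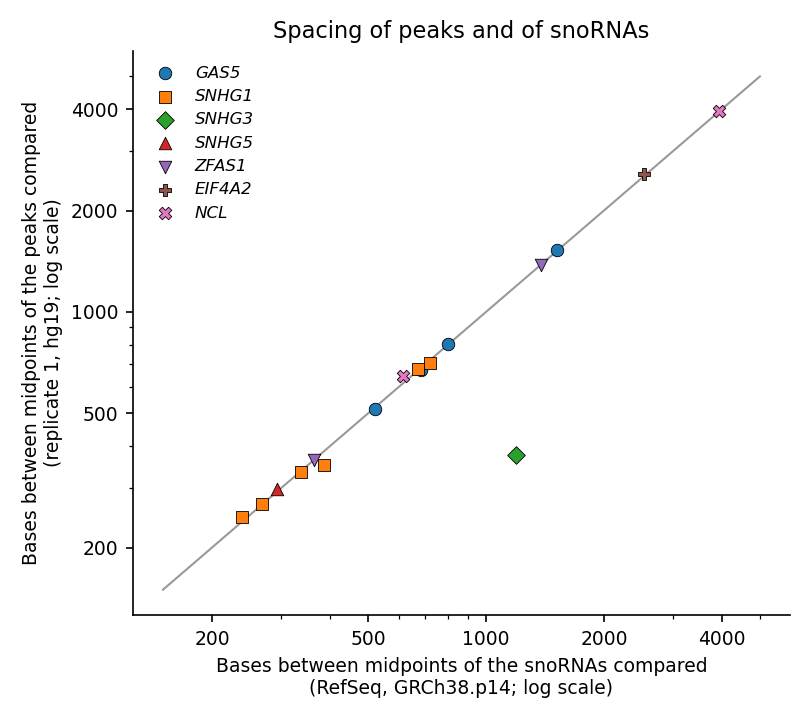
Bases between midpoints of replicate 1 peaks in hg19 (y axis, log scale) against bases between midpoints of the snoRNAs with the closest spacing in RefSeq GRCh38.p14 (x axis, log scale), 1 point per spacing, with the line of equal spacing. The 16 spacings of 6 genes lie within 37 bases of the line and the SNHG3 point lies 816.5 bases below it.

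The 22 peaks spaced like snoRNAs had a median fold of 1.54 (range 1.12 to 5.47) and a median −log10 p of 18.6 (2.59 to 196). The other 14 peaks, 9 in ZFAS1, 4 in SNHG3 and 1 in NCL, had a median fold of 3.14 (1.68 to 4.91) and a median −log10 p of 9.41 (5.91 to 17.1). Under 2-fold lay 17 of the 22 and 1 of the 14. The 10 peaks under 2-fold with a −log10 p of at least 10 were all among the 22. Without SNHG5 and EIF4A2, the median fold of the remaining 18 was 1.63. Which peaks fell in either set was decided by spacing alone, but after their folds had been seen, and the sets were not tested against each other. A gene counted as spaced like its snoRNAs when its largest difference was under 50 bases. Each GAS5, SNHG1, SNHG5 and EIF4A2 peak was among the 22, and each SNHG3 peak among the 14. Outside ZFAS1 and NCL, the contrasts in fold and −log10 p therefore cannot be told apart from a difference between genes. In ZFAS1 the median −log10 p was 45.3 in the 3 spaced peaks and 10.1 in the other 9. NCL had the reverse order, with 3.97, 2.59 and 4.13 in its spaced peaks and 6.07 in its 1 other peak. The ZFAS1 sets lie in separate stretches with 4133 bases between them, so spacing there cannot be told apart from position in the gene.

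GAS5 (chr1:173833039-173837125) had 5 peaks in replicate 1 and none in replicate 2. The strongest, at chromosome 1, 173836013 to 173836049, minus strand, had a −log10 p of 196, rank 27 of the 210878 peaks, with a fold of 3.08. The other 4 had folds of 1.48 (173833297 to 173833333), 1.52 (173833958 to 173834022), 1.46 (173834484 to 173834529) and 1.97 (173836820 to 173836850). Their −log10 p ran from 15.2 to 21.8, so each stood in the strongest 1.12% of the list. A gene with 5 such peaks in one replicate was thus without a listed peak in the other, shorter list.

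SNHG1 (chr11:62619460-62623386) had 7 peaks in replicate 1 and 2 in replicate 2, the highest density of the 7 genes in replicate 1 at 1.78 peaks per kb. The strongest was at chromosome 11, 62620447 to 62620490, minus strand, with a fold of 5.47 and a −log10 p of 189, rank 30. It was the one host gene peak of replicate 1 above 5-fold, 1 of 36, where 9.16% of the whole list lay above it. Replicate 2 also had 1 such peak of 11, in ZFAS1, where 18% of its list did. Peaks at 62621135 to 62621173 (2.54-fold) and 62622766 to 62622800 (1.89-fold) followed with −log10 p of 84.6 and 68.2. The weakest, at 62620801 to 62620838, had 1.18-fold and 3.43. Both replicate 2 peaks of SNHG1 lay on replicate 1 peaks, at 62620450 to 62620481 with 1.32-fold and at 62622768 to 62622798 with 1.17-fold, and their −log10 p were 5.15 and 4.71. They met the strongest and the third strongest replicate 1 peak of the gene, while the second strongest had no counterpart.

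SNHG3, the host of the H/ACA snoRNAs SNORA73A and SNORA73B that take part in ribosomal RNA processing, spans chr1:28832455-28837404 and had 4 peaks in replicate 1 and none in replicate 2. One lay at chromosome 1, 28833266 to 28833296, plus strand, with 2.48-fold and a −log10 p of 8.45. The other 3 lay close together at 28835437 to 28835466, 28835643 to 28835672 and 28835812 to 28835842. Their folds were 2.01, 1.68 and 2.31, and their −log10 p 17.1, 8.003 and 14.8. The region after the gene's 3′ end held 13 replicate 2 peaks within 10 kb on the same strand, the first 3006 bases away, and 6 replicate 1 peaks, the first 7128 bases away. Replicate 2 thus listed peaks near SNHG3 but none in it.

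SNHG5, the shortest host at 1727 bases (chr6:86386725-86388451), had the lowest maximum −log10 p of the 7 genes in replicate 1. Its 2 replicate 1 peaks, at chromosome 6, 86387003 to 86387033 and 86387301 to 86387330, minus strand, had folds of 1.26 and 1.30 and −log10 p of 3.97 each. Replicate 2 listed none.

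ZFAS1, a noncoding host of the SNORD12 family at chr20:47894715-47905797, held the most peaks, 12 in replicate 1 and 7 in replicate 2, and they formed 2 stretches on the plus strand of chromosome 20. The first, near the 5′ end, held 3 replicate 1 peaks at 47895509 to 47895568, 47896883 to 47896947 and 47897247 to 47897309, with folds of 1.24, 1.92 and 1.77 and −log10 p of 6.42, 71.6 and 45.3. These are the 3 peaks spaced like SNORD12C, SNORD12B and SNORD12. No replicate 2 peak lay there. The second stretch began 4133 bases further on and held 9 replicate 1 peaks between 47901443 and 47905384 and the 7 replicate 2 peaks. Its replicate 1 folds ran from 2.98 to 4.91 (median 3.65) and its −log10 p from 5.91 to 15.7. Its replicate 2 folds ran from 2.35 to 5.97 and the −log10 p from 4.84 to 17.9. The whole replicate 1 list had a median fold of 3.12 (quartiles 2.76 and 3.94). Of that list 0.338% lay under 2-fold, as the 3 peaks of the first stretch did. Whether the second stretch is exonic or intronic was not analysed here.

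EIF4A2 (chr3:186501361-186507686) had 2 replicate 1 peaks and 1 replicate 2 peak on the plus strand of chromosome 3. The stronger, at 186502610 to 186502648, had 2.59-fold and a −log10 p of 55.9, rank 116, and was met in replicate 2 by a peak at 186502619 to 186502648 with 1.72-fold and 16.3. That was the one replicate 2 host gene peak under 2-fold with a −log10 p of at least 10. The other replicate 1 peak, at 186505187 to 186505216, had 1.39-fold and 11.9.

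NCL (chr2:232319459-232329186) had 4 replicate 1 peaks and 1 replicate 2 peak on the minus strand of chromosome 2, and none coincided. The 3 replicate 1 peaks spaced like its snoRNAs, at 232320504 to 232320534, 232321147 to 232321180 and 232325083 to 232325120, had folds of 1.23, 1.12 and 1.28, and −log10 p of 3.97, 2.59 and 4.13. The fourth, at 232329046 to 232329114, lay with its midpoint 106 bases from the gene's 5′ end and had 2.43-fold and 6.07. The replicate 2 peak, at 232327908 to 232327947, had 3.46-fold and 9.81 and lay 1098 bases from the nearest replicate 1 peak. EIF4A2 and NCL had 0.316 and 0.411 replicate 1 peaks per kb, and the 5 noncoding hosts 0.808 to 1.78. In replicate 2 the 2 kinds of host overlapped, with 0.158 and 0.103 peaks per kb in EIF4A2 and NCL and 0 to 0.632 in the noncoding hosts. Coding and noncoding genes outside these hosts were not analysed, and 2 against 5 genes do not compare the 2 kinds.

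**Figure D3:**
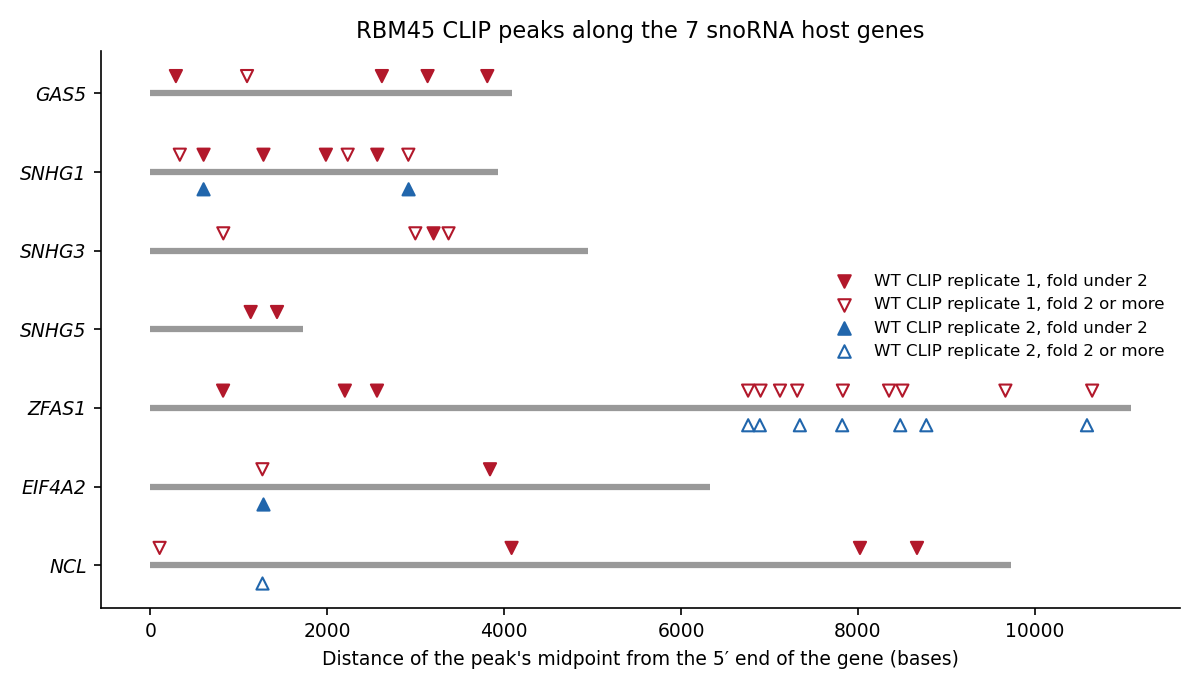
Peaks of WT CLIP replicate 1 (above each gene) and replicate 2 (below it) along the 7 host genes, by distance of the midpoint from the 5′ end in bases; filled marks are peaks under 2-fold. ZFAS1 shows 3 filled replicate 1 marks near the 5′ end and open marks of both replicates beyond a gap of 4133 bases.

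Replicate 2 peaks in the host genes mostly lay on replicate 1 peaks. Of the 11, 8 shared at least 1 base with a replicate 1 peak on the same strand, which is 72.7% (95% exact Clopper-Pearson interval 39.0 to 94.0), where 28.8% of the whole list did. Seen from replicate 1, 8 of 36 were met by replicate 2, 22.2% (10.1 to 39.2), where 8.88% of the list were. These intervals account for counting error alone, as if each peak were independent of its neighbours. By gene, the 8 were 5 in ZFAS1, 2 in SNHG1 and 1 in EIF4A2. Of the 22 replicate 1 peaks spaced like snoRNAs 3 were met, and of the other 14, 5 were, each of these in the second stretch of ZFAS1.

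The 7 deposited pairs were 4 in ZFAS1, 2 in SNHG1 and 1 in EIF4A2. The eighth overlap, of 47901986 to 47902070 in replicate 1 and 47902042 to 47902074 in replicate 2 in ZFAS1, covered 34.1% of the replicate 1 peak and is not among them. The ZFAS1 pairs had replicate 1 and replicate 2 folds of 2.98 and 2.39, 3.10 and 3.01, 4.75 and 5.97, and 3.49 and 2.64. Their midpoints lay 1 to 24.5 bases apart. The SNHG1 and EIF4A2 pairs were 0 to 4.5 bases apart at the midpoint, and their folds were 5.47 and 1.32, 1.89 and 1.17, and 2.59 and 1.72. The −log10 p of the first SNHG1 pair was 189 in replicate 1 and 5.15 in replicate 2, the widest gap of the 7. A peak's −log10 p depends on depth, which was not known, so these values are set side by side only.

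**Figure D4:**
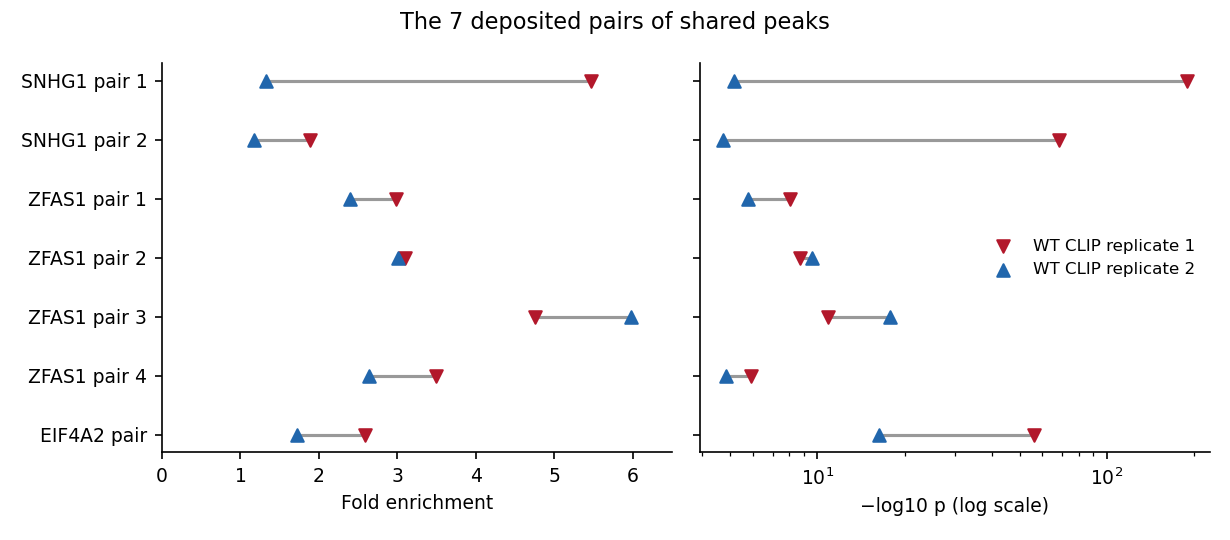
Fold enrichment (left, linear axis from 0) and −log10 p (right, log scale) of the 2 peaks of each deposited pair, with WT CLIP replicate 1 as downward and replicate 2 as upward triangles, joined by a line. The SNHG1 pairs differ most in −log10 p, 189 against 5.15 and 68.2 against 4.71, and the ZFAS1 pairs least.

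The 7 genes span 41.8 kb and held 0.861 replicate 1 peaks per kb and 0.263 replicate 2 peaks per kb. The rest of the genome, taken from the first to the last peak of each chromosome on both strands, held 0.0356 and 0.0111. The ratios were 24.2 (95% Poisson interval 16.9 to 33.4) in replicate 1 and 23.7 (11.8 to 42.4) in replicate 2, counting error only. These intervals treat each peak as independent of its neighbours. The reference includes sequence outside genes, so the ratios give no comparison with transcribed sequence alone. Against the 10 kb on each side of the genes on the same strand, the ratios were 17.2 in replicate 1, with 7 flanking peaks, and 2.83 in replicate 2, with 13. The near-equal ratios to the genome therefore did not hold against the flanks, where each of the 13 replicate 2 peaks lay after SNHG3. The 7 flanking peaks of replicate 1 also lay beside SNHG3, so both flank ratios rest on the surroundings of that gene. Density in other genes was not analysed here. No peak of either list lay on the opposite strand of the 7 genes. The labels and files do not say how the strand of a peak was set. Both peaks of a deposited pair stood in the same number of repeated rows in 13757 of 13758 pairs, and the absence of opposite-strand peaks is therefore not read as a measure of background.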

How the data were processed

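The values are those of the deposited peak lists of 2 WT CLIP libraries and the list of their pairs. Per the labels' protocols, libraries followed iCLIP. Peaks were called per library by MACS2 at a p of 0.005, per the peak names. The submitters' processing notes name hg19, Novoalign 3.09.00, MACS2 2.1.1.20160309 and bedtools 2.25.0. No source used here says whether the input served as the control of the caller. The deposited lists give a score, a fold enrichment (ratio) and an unadjusted −log10 p per peak, all the authors' values. Weak peaks are kept at this threshold, and fold and −log10 p depend on depth and local background.

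Repeated rows (467329 rows in replicate 1 and 148958 in replicate 2) were merged, leaving 1 entry for each peak on each strand. Positions count from 1. The 8 count columns match no sample label and were not used, so the planned count tests of CLIP against input and knockout against WT were not run, and neither was the planned list of other host genes, which needs hg19 coordinates. No test was made, since each library gives 1 list. Overlap counting was tested on simulated peaks. Named peaks were those of genes with 5 or fewer in a list and otherwise the 3 strongest. Further SNHG1 and ZFAS1 peaks were named after their values were seen. Members and lists were chosen with earlier results of these data known. Alternatives changed the strength limit, overlap, gene interval, repeats, strand and flanks. Values were computed with pandas 2.3.3, scipy 1.17.1 and numpy 2.4.6 under Python 3.11.15, and figures drawn with matplotlib 3.10.9.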

Additional observations from a re-analysis of the deposited data

How the results depend on the processing

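The replicate 1 count, 36, was 34 in the stronger 50% of the list and stayed 36 with whole peaks required, genes extended by 1000 bases or strand ignored, and the replicate 2 count stayed 11 under each of these. At 5-fold or more 1 peak was left in each list, in SNHG1 in replicate 1 (2.78% of the host gene peaks, against 9.16% of the list above 5-fold) and in ZFAS1 in replicate 2 (9.09% against 18.01%), so 0 genes had a peak in both lists instead of 4. With every repeated row counted the numbers were 122 and 42. Genes with a peak numbered 4 to 7 when either replicate was left out, 4 from replicate 2 alone and 7 from replicate 1 alone. Pairs numbered 8 by 1 shared base and 6 by 50% of both peaks. The matched share of replicate 2, 72.7%, was 54.5% by 50% of both peaks. Against the 10 kb on each side of the genes, the density ratio was 17.2 in replicate 1 and 2.83 in replicate 2, where the 13 flanking peaks all lie after SNHG3. The 7 flanking peaks of replicate 1 also lie beside SNHG3. Leaving out 1 host gene at a time, an alternative chosen after seeing the data, left 14 to 17 of the 18 peaks under 2-fold. No paired analysis was possible because no test was run and no count column could be tied to a sample. The depth of either library is unknown, so a gene without a replicate 2 peak is not shown to lack binding there.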
